A study of Homo sapiens with 6 samples.

Results

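B cell receptor signalling was followed through 32 genes in BL2, an established line of human Burkitt lymphoma, after LEF1 had been lowered by siRNA. LEF1 encodes a DNA-binding factor that works with beta-catenin in Wnt signalling. The cells were grown in complete RPMI and electroporated with scrambled siRNA (3 arrays) or with 4 pooled siRNAs that target LEF1 (3 arrays). Of the 3 batches named in the labels, each paired 1 array of either group. The series' design text calls the 3 arrays of a group biological replicates. All 6 arrays come from 1 cell line and 1 siRNA pool, and the labels give no time between electroporation and harvest. The comparison asks how transcripts of the receptor pathway differ once LEF1 is lowered.

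A member's values were taken from the probe sets that the platform annotation assigns to that gene alone. This gave 85 of 54613 tested probe sets for 31 of the 32 genes, against 19775 genes in all. PIK3AP1, an adaptor that links the receptor to PI3 kinase, is not analysed here, since no probe set was assigned to it alone. The brightest probe set (highest mean over 6 arrays) stood for a gene in counts and means over genes. Values are log2 expression, one unit being a doubling of signal, and 23 genes had several probe sets. Of the 85 probe sets, 13 had a mean below 6.91, the median level of all probe sets, where most of the signal is background and differences are compressed.

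When antigen binds the B cell receptor, the kinase LYN phosphorylates its signalling chains CD79A and CD79B, and SYK docks there. SYK acts on the adaptor BLNK, which gathers BTK, PLCG2 and VAV proteins. PLCG2 makes the second messengers that release calcium and engage protein kinase C beta (PRKCB), the Ras activator RASGRP3 and, through BCL10 and MALT1, NF-kappaB, while PI3 kinase provides the membrane lipid to which several of these proteins bind. Inhibitory receptors such as CD22, CD72 and FCGR2B hold the signal back by recruiting the phosphatases PTPN6 (SHP-1) and INPP5D (SHIP-1). Survival of Burkitt lymphoma cells is known to draw on a low, steady signal of this receptor through PI3 kinase. The members were kept in 3 classes, with 20 measured activators, 7 inhibitors (CD22, CD72, FCGR2B, PTPN6, INPP5D, LAX1 and KLHL14) and 4 genes known to act either way (LYN, BANK1, DAPP1 and KLHL6).

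LEF1 itself was lower in each batch. Its brightest probe set read 11.09, 10.58 and 11.45 with scrambled siRNA in batches 1, 2 and 3, and 8.21, 8.09 and 8.67 with LEF1 siRNA (limma adjusted p = 0.0213 without block). Over all probe sets, limma called 10 of 54613 (0.0183%) without block, and none of the 85 member probe sets was among them. At an unadjusted limma p under 0.05, 21 member probe sets were higher and 1 lower without block, and 34 and 4 with batch as block. With batch as block, 3328 probe sets (6.09%) passed after adjustment, 2501 higher (4.58%) and 827 lower (1.51%). Below, a gene is said to have risen or fallen where it passed with batch as block, at an adjusted p under 0.05 over all 54613 probe sets. The lowest adjusted p of a member without block was 0.0837, so every rise given here rests on the comparison within batches. Calls were repeated under 4 other scalings of the arrays, namely quantile normalization, equal array medians, cyclic loess and scaling to the array's 24 poly-A control probe sets.

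Bulk arrays cannot tell apart fewer cells of a type and less RNA per cell. B cell markers (CD79A, CD79B, MS4A1, CD22, PAX5 and EBF1) all lay above the median level, and at their brightest probe sets 0 of 6 passed limma in either fit (unadjusted, 0 without block and 1 with). Their summed linear signal ran from 22481 to 26145 with scrambled siRNA and from 25063 to 25510 with LEF1 siRNA. Of 8 T and NK cell markers 5 lay below the median level, as did 7 of 8 myeloid markers, and 2 of 8 epithelial and fibroblast markers. The summed linear signal of the T and NK cell markers was 975 to 1003 with scrambled siRNA and 940 to 972 with LEF1 siRNA, with CD247 lower by a log2 difference of -0.22 (limma adjusted p = 0.0368 with batch as block, 0.652 without). The myeloid markers summed to 762 to 792 against 710 to 789, and the epithelial and fibroblast markers to 1018 to 1076 against 1060 to 1095. RNA quality differed in 1 measure. The 3' minus 5' log2 signal of ACTB was 0.07, -0.03 and 0.10 with scrambled siRNA and 0.18, 0.30 and 0.22 with LEF1 siRNA, with no overlap, while that of GAPDH was 0.04, 0.06 and 0.10 in both groups. The part of these differences in the results below was not tested.

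At the brightest probe set, 14 of 31 members rose and 0 fell (unadjusted, 19 were higher and 1 lower with batch as block). Over all genes measured, 6.73% of 19775 rose and 1.7% fell by the same rule, and of the 12631 genes at or above the median level 10.4% rose. Members were higher in 3 of 3 batches in 18 cases (26% of all genes) and lower in all 3 in 1 case, PIK3R1 (13.7% of all genes). In 11 members every LEF1 siRNA array lay above every scrambled siRNA array (9.52% of all genes), and in 0 the reverse held (4.03%). The median difference of the 31 members was 0.19, beside 0.02 over all genes. Counting every probe set, 24 of 85 rose and 0 fell, and at or above the median level 23 of 72 did, beside 8.71% of 27307 probe sets of that level. The rises were modest, from 1.17-fold to 1.78-fold, and all 24 had the same direction in each batch.

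**Figure D1:**
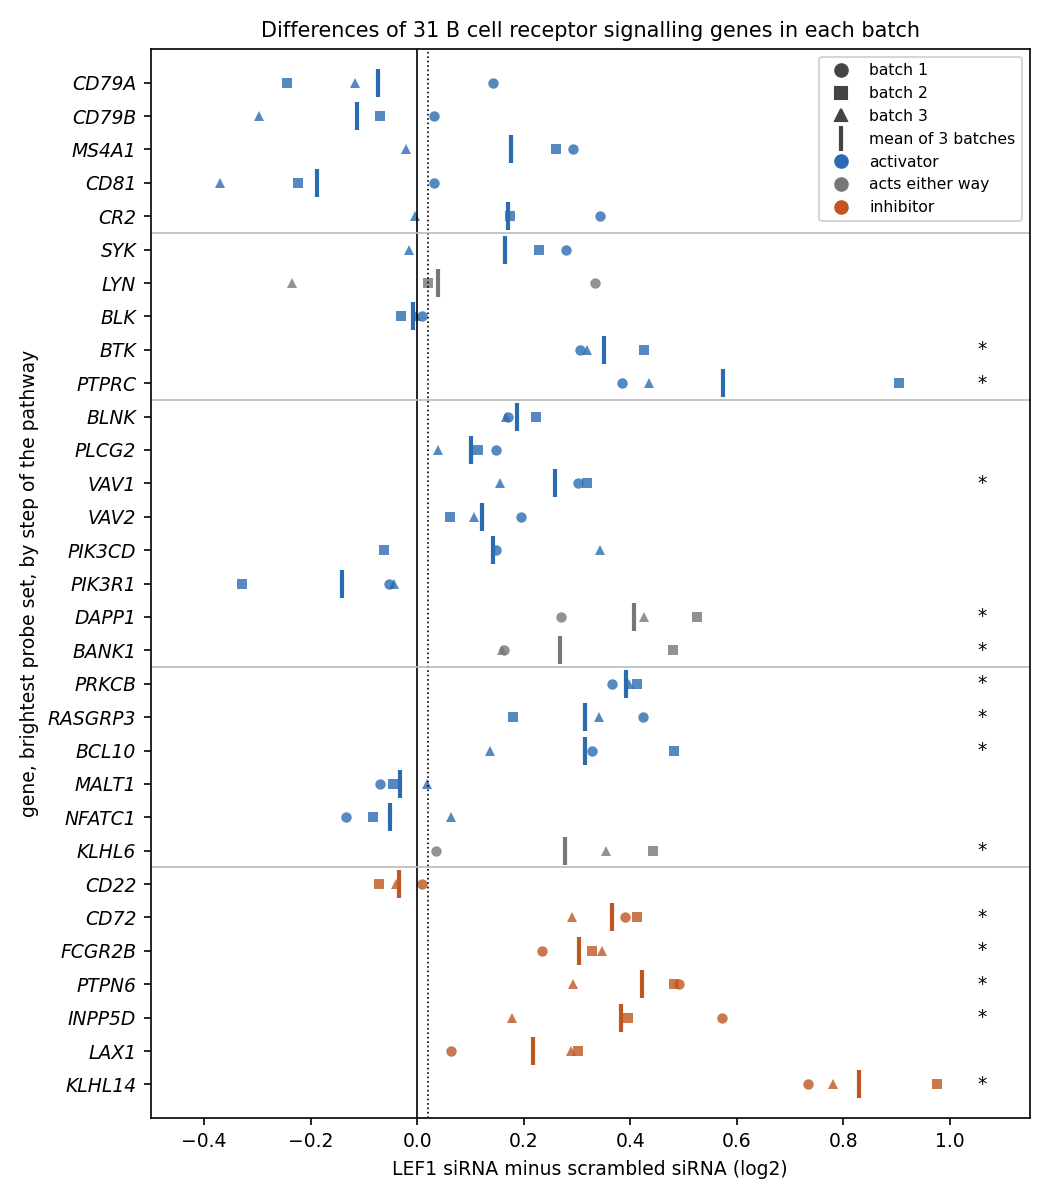
Log2 difference (LEF1 siRNA minus scrambled siRNA) of the brightest probe set of each of 31 members in batches 1, 2 and 3, with a bar at the mean. The dotted line is the median difference of all genes (0.02), stars mark the 14 members that passed with batch as block, and horizontal lines separate the receptor, its kinases, the adaptors, the downstream effectors and the inhibitors.

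The antigen receptor and its co-receptors did not pass at their brightest probe sets. CD79A, the alpha signalling chain, read 11.89, 12.27 and 11.96 with scrambled siRNA and 12.03, 12.03 and 11.84 with LEF1 siRNA. CD79B, the beta chain, read 11.49, 11.53 and 11.81 against 11.52, 11.46 and 11.51. The groups overlapped in both, and the batch differences had both signs. The difference was -0.07 for CD79A, with a 95% interval of -0.22 to 0.08 with batch as block, and -0.11 for CD79B (-0.26 to 0.03), so a rise as large as that of BTK below lies outside both intervals. The second CD79A probe set differed by 0.11 (limma adjusted p = 0.467 with batch as block). CD81, a tetraspanin of the cell surface, read 12.15, 12.28 and 12.29 against 12.18, 12.05 and 11.92, a difference of -0.19 (limma adjusted p = 0.167 with batch as block). It was lower in batches 2 and 3 only, and without batch 1 it passed as lower (-0.30; limma adjusted p = 0.0097). CR2, a complement receptor of B cells, had 2 probe sets below the median level, at differences of 0.17 and -0.03.

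MS4A1, which encodes the surface protein CD20, gave different answers at its 4 probe sets. The brightest read 13.45, 13.47 and 13.73 with scrambled siRNA and 13.74, 13.73 and 13.71 with LEF1 siRNA, a difference of 0.18 that did not pass (limma adjusted p = 0.167 with batch as block). The next 2 differed by 0.00 and 0.01, and both are of a type that can bind related transcripts. These 3 probe sets were higher in batch 1 and lower in batch 3. The fourth read 11.85, 11.80 and 11.67 against 12.32, 12.27 and 12.23, with no overlap. It rose by 0.50 (SE 0.06; limma adjusted p = 0.000226 with batch as block, 0.0837 without), by nearly the same amount in each batch, and passed under all 4 other scalings. Over the 5 receptor and co-receptor genes the mean difference was 0.17 in batch 1, -0.02 in batch 2 and -0.16 in batch 3.

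Of the kinases at the receptor, BTK rose. BTK, the kinase that activates PLCG2, read 10.26, 10.16 and 10.37 with scrambled siRNA and 10.56, 10.58 and 10.69 with LEF1 siRNA. Every LEF1 siRNA array was above every scrambled siRNA array. The rise was 1.27-fold, or 0.35 on the log2 scale (SE 0.06; limma adjusted p = 0.00252 with batch as block, 0.192 without), at its single probe set. SYK, which starts the cascade from the phosphorylated chains, had 4 probe sets that differed by 0.05 to 0.16, and none passed. Its brightest read 11.23, 11.09 and 11.38 against 11.51, 11.31 and 11.36, overlapping between groups. BLK, a Src-family kinase of B cells, read 10.002, 9.68 and 10.28 against 10.01, 9.65 and 10.28 at its brightest probe set. The 2 arrays of each batch were nearly equal, and the difference of -0.01 had a 95% interval of -0.13 to 0.11 with batch as block.

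LYN, the kinase that both starts the signal and phosphorylates the inhibitory receptors, had 3 probe sets with differences of 0.04, 0.13 and 0.27. The third read 10.46, 10.52 and 10.47 with scrambled siRNA and 10.92, 10.77 and 10.56 with LEF1 siRNA and rose (limma adjusted p = 0.0352 with batch as block). The batch differences there were 0.47, 0.26 and 0.08. The call was lost with equal array medians or scaling to the poly-A controls (highest limma adjusted p = 0.135) and without batch 1 or batch 2 (highest 0.237).

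PTPRC, which encodes CD45, the phosphatase that keeps Src-family kinases ready to act, had the largest rise of any activator at its brightest probe set. It read 10.93, 10.55 and 10.84 with scrambled siRNA and 11.31, 11.46 and 11.27 with LEF1 siRNA. The groups did not overlap, and batch 2 contributed most, with differences of 0.39, 0.90 and 0.44. The rise was 1.49-fold (0.57 on the log2 scale, SE 0.08; limma adjusted p = 0.00118 with batch as block, 0.147 without). PTPRC was the only member with 3 probe sets that rose, the second by 0.28 and the third by 0.25, again without overlap. Its other 2 probe sets lay below the median level and differed by 0.10 and -0.00. The second and the third did not pass under scaling to the poly-A controls (limma adjusted p = 0.0913 and 0.137), neither passed without batch 2, and the third did not pass without batch 1.

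**Figure D2:**
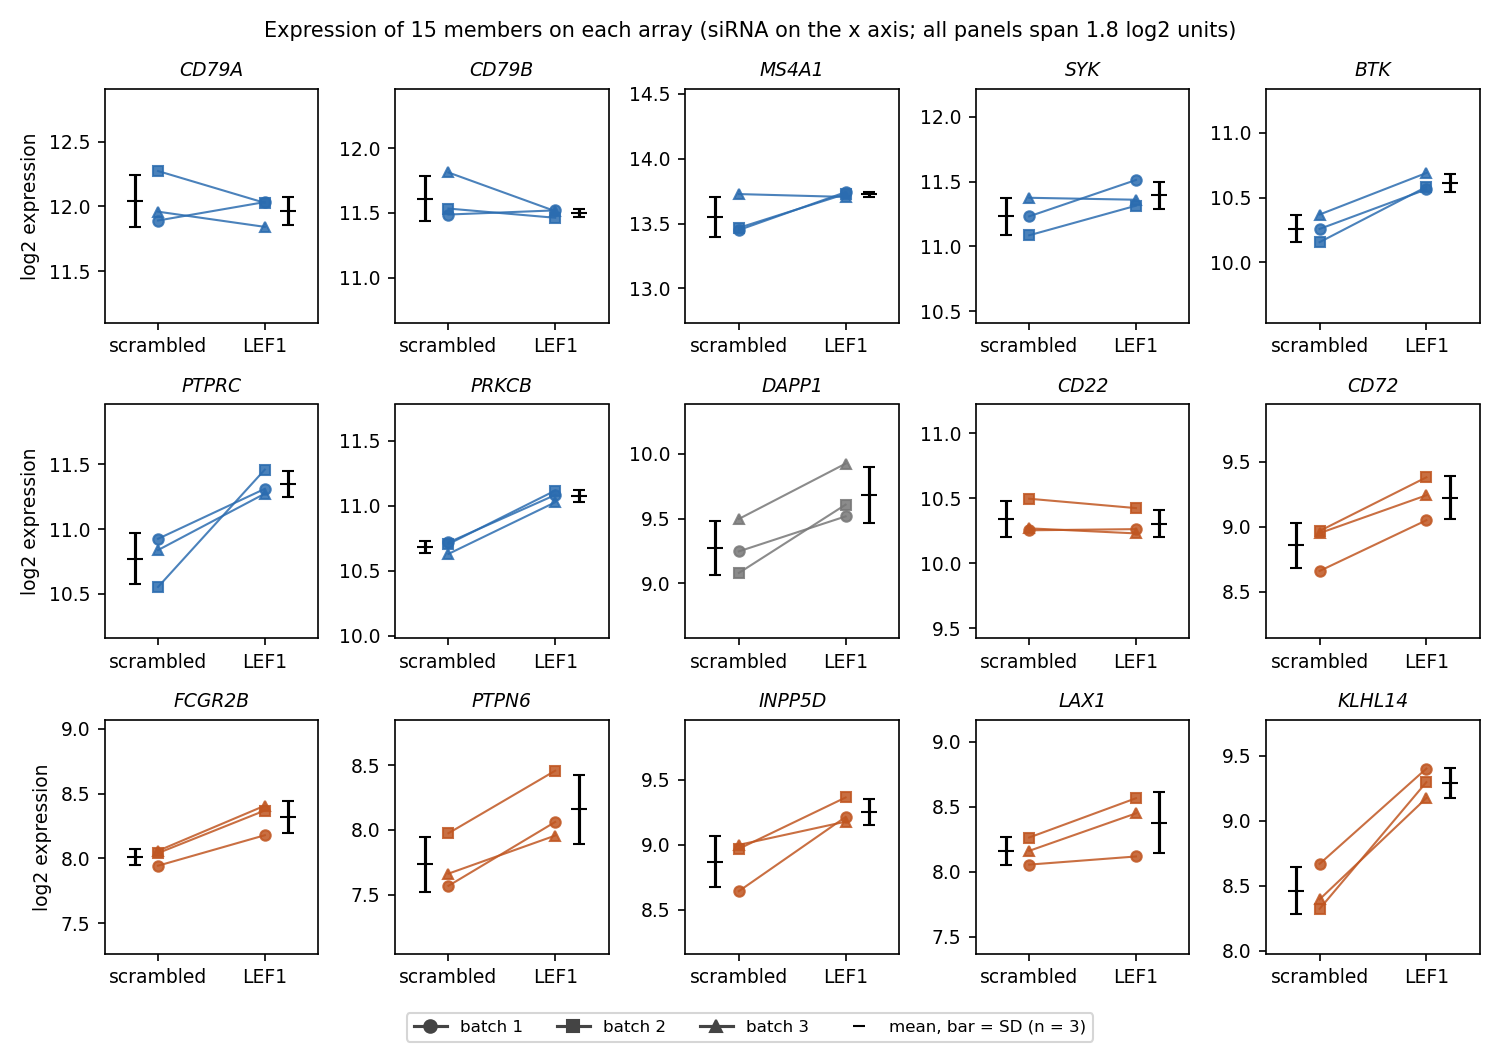
Log2 expression of 15 members at their brightest probe set on each of the 6 arrays, lines joining the 2 arrays of a batch, with the mean and SD of 3 arrays beside each group; every panel spans the same range of log2 units. CD79A, CD79B and CD22 have lines in both directions, while each line of BTK, PTPRC, PRKCB, DAPP1, CD72, FCGR2B, PTPN6, INPP5D and KLHL14 climbs.

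Among the adaptors and the enzymes they bring together, DAPP1, BANK1 and VAV1 rose. DAPP1 is an adaptor that binds PI3 kinase lipids and carries the signal to Rac and the cytoskeleton, and it can both help and limit receptor signalling. Its brightest probe set read 9.25, 9.08 and 9.50 with scrambled siRNA and 9.52, 9.61 and 9.92 with LEF1 siRNA, with no overlap. It rose 1.33-fold (0.41 on the log2 scale, SE 0.06; limma adjusted p = 0.00162 with batch as block, 0.43 without). That probe set is of a type that can bind related transcripts, and the second one, at 8.98, 8.98 and 9.16 against 9.42, 9.34 and 9.36, rose as well (0.33; limma adjusted p = 0.00542 with batch as block). The third and the fourth differed by 0.15 and 0.06 and did not pass.

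BANK1, a scaffold that ties LYN to calcium release, was measured near the background. Its brightest probe set read 7.20, 6.92 and 7.20 with scrambled siRNA and 7.36, 7.40 and 7.36 with LEF1 siRNA (0.27; limma adjusted p = 0.0333 with batch as block). That call was lost without batch 2 (limma adjusted p = 0.342) and under scaling to the poly-A controls (0.141). The dimmest of its 3 probe sets, below the median level, read 6.65, 6.64 and 6.54 against 7.14, 6.84 and 7.004 and rose by 0.39 (limma adjusted p = 0.00303 with batch as block), also without any 1 batch and under each other scaling. VAV1, a Rac activator of blood cells, read 9.09, 9.08 and 9.39 against 9.39, 9.40 and 9.55. It rose by 0.26 (limma adjusted p = 0.0175 with batch as block), though the groups overlapped, and it did not pass without batch 1 or batch 2 (highest limma adjusted p = 0.132) or under scaling to the poly-A controls (0.13). VAV2, its broadly expressed relative, differed by 0.12, -0.00 and -0.04 at its 3 probe sets.

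BLNK, the central adaptor, read 11.06, 11.23 and 11.29 with scrambled siRNA and 11.24, 11.46 and 11.46 with LEF1 siRNA. It was higher in each batch by 0.17 to 0.22, which did not pass (limma adjusted p = 0.0689 with batch as block). PLCG2, the phospholipase, read 11.59, 11.70 and 11.94 against 11.74, 11.81 and 11.98 at its brightest probe set, which did not pass. Its second probe set rose by 0.23 (limma adjusted p = 0.025 with batch as block), the smallest difference called among the members, and was not called under any of the 4 other scalings or with any 1 batch left out.

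The PI3 kinase subunits gave no common direction. PIK3CD, the catalytic subunit of leukocytes, differed by 0.14 and -0.05 at 2 probe sets, neither of which passed. PIK3R1, the regulatory subunit, read 9.48, 9.14 and 9.13 with scrambled siRNA and 9.43, 8.81 and 9.09 with LEF1 siRNA at its brightest probe set. It was lower in each batch, by 0.14 on average, with a limma adjusted p of 0.294 with batch as block. Its second probe set went the other way, from 8.47, 8.02 and 8.37 to 8.58, 8.47 and 8.56 (0.25; limma adjusted p = 0.0451 with batch as block), and did not pass under any other scaling (lowest limma adjusted p = 0.058) or without batch 2 (difference 0.15; 0.415). The third differed by -0.06.

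Downstream of the second messengers, PRKCB, RASGRP3 and BCL10 rose and MALT1 and NFATC1 did not pass. PRKCB, the protein kinase C of the NF-kappaB branch, varied little within either group (SD 0.05 in each). Its brightest probe set read 10.72, 10.71 and 10.63 with scrambled siRNA and 11.08, 11.12 and 11.03 with LEF1 siRNA, with no overlap. The batch differences were 0.37, 0.41 and 0.40, a 1.31-fold rise (0.39 on the log2 scale, SE 0.06; limma adjusted p = 0.00104 with batch as block, 0.102 without). The second PRKCB probe set rose by 0.31 with overlapping groups, and was lost without batch 2 (limma adjusted p = 0.173) and under scaling to the poly-A controls (0.0768). The other 4, among them 1 below the median level, differed by -0.03 to 0.13.

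RASGRP3, which loads Ras in response to diacylglycerol, read 9.18, 9.52 and 9.49 with scrambled siRNA and 9.60, 9.70 and 9.83 with LEF1 siRNA, with no overlap. It rose by 0.32 on the log2 scale (SE 0.06; limma adjusted p = 0.00728 with batch as block, 0.43 without). The dimmer RASGRP3 probe set, below the median level, differed by -0.11 and did not pass. BCL10 links protein kinase C to the NF-kappaB kinase complex. It read 9.49, 9.34 and 9.73 against 9.82, 9.82 and 9.87, a rise of 0.32 (limma adjusted p = 0.0119 with batch as block). The call on BCL10 was lost without batch 2 (limma adjusted p = 0.136) and under scaling to the poly-A controls (0.064). The dimmer BCL10 probe sets, below the median level, differed by 0.05 and 0.07 and did not pass.

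MALT1, the protease that BCL10 activates, had probe sets of both signs, at -0.03, -0.11 and 0.13, and none passed. At the second of these every LEF1 siRNA array was below every scrambled siRNA array, with 8.77, 8.78 and 8.79 against 8.68, 8.60 and 8.74, and it passed as lower under scaling to the poly-A controls (limma adjusted p = 0.0234). Like the brightest one of DAPP1, that probe set is of a type that can bind related transcripts. NFATC1, a transcription factor switched on by calcium, differed by -0.23 to 0.10 at 5 probe sets. The brightest varied more between batches than between groups, with 9.82, 9.40 and 10.13 against 9.69, 9.32 and 10.19. The third of its probe sets (-0.16; limma adjusted p = 0.161 with batch as block) passed as lower after quantile normalization (limma adjusted p = 0.0407), cyclic loess (0.0486) and scaling to the poly-A controls (0.00871), and the fourth passed as lower under the last of these (-0.35; limma adjusted p = 0.00464) and without batch 1 (-0.37; 0.0012). The third and the fourth are also of the type that can bind related transcripts.

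KLHL6, a ubiquitin ligase subunit of germinal centre B cells that affects receptor signalling, read 9.55, 9.74 and 10.21 with scrambled siRNA and 9.58, 10.18 and 10.56 with LEF1 siRNA. The groups overlapped widely, and the batch differences were 0.04, 0.44 and 0.36. It rose by 0.28 (limma adjusted p = 0.0361 with batch as block, 0.901 without). Its other 3 probe sets differed by 0.08, -0.00 and -0.08, and the call was lost without batch 2 (limma adjusted p = 0.306) and under quantile normalization, cyclic loess and scaling to the poly-A controls (highest 0.123).

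Of the 7 inhibitors 5 rose, namely KLHL14, PTPN6, INPP5D, CD72 and FCGR2B. KLHL14, a relative of KLHL6 known to reduce the amount of receptor that reaches the cell surface, had the largest difference of any member. Its brightest probe set read 8.67, 8.32 and 8.39 with scrambled siRNA and 9.40, 9.30 and 9.17 with LEF1 siRNA. The lowest LEF1 siRNA array was well above the highest scrambled siRNA array. The rise was 1.78-fold (0.83 on the log2 scale, SE 0.06, 95% interval 0.70 to 0.96; limma adjusted p = 1.49e-05 with batch as block, 0.0837 without), and it passed under each other scaling and without any 1 batch. Its second probe set differed by 0.21 (limma adjusted p = 0.0751 with batch as block), and the third lay below the median level.

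PTPN6, the phosphatase that CD22 and CD72 recruit, read 7.57, 7.97 and 7.66 with scrambled siRNA and 8.06, 8.46 and 7.96 with LEF1 siRNA at its single probe set. The groups overlapped, since the batch 2 arrays were high in both, but each pair climbed, by 0.49, 0.48 and 0.29. The rise was 1.34-fold (0.42 on the log2 scale, SE 0.06; limma adjusted p = 0.00112 with batch as block, 0.48 without). INPP5D, the lipid phosphatase that removes the product of PI3 kinase, read 8.64, 8.97 and 8.999 against 9.21, 9.36 and 9.18 and rose by 0.38 without overlap (SE 0.07; limma adjusted p = 0.00504 with batch as block, 0.306 without). Its second probe set rose by 0.29, with batch differences of 0.50, 0.19 and 0.19, but not without batch 1 (limma adjusted p = 0.152) or under scaling to the poly-A controls (0.0829). The third, below the median level, differed by 0.14.

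The inhibitory receptors went different ways. CD72, a C-type lectin that recruits PTPN6, read 8.66, 8.97 and 8.95 with scrambled siRNA and 9.05, 9.38 and 9.24 with LEF1 siRNA, with no overlap. It rose by 0.37 (SE 0.06; limma adjusted p = 0.0019 with batch as block, 0.381 without) at its single probe set. FCGR2B, the inhibitory IgG receptor of B cells, read 7.94, 8.04 and 8.06 against 8.18, 8.37 and 8.41, also without overlap, and rose by 0.30 (SE 0.06; limma adjusted p = 0.00573 with batch as block, 0.25 without). FCGR2B has near-identical relatives in its family, so what its single probe set measured is uncertain, and it did not pass under scaling to the poly-A controls (limma adjusted p = 0.0552).

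CD22, the sialic acid-binding inhibitory receptor, read 10.25, 10.50 and 10.27 with scrambled siRNA and 10.26, 10.42 and 10.23 with LEF1 siRNA at its brightest probe set. The difference of -0.03 had a 95% interval of -0.16 to 0.09 with batch as block, which leaves out differences as large as those of CD72 or PTPN6. The second of its 4 probe sets was lower in each batch (-0.19; limma adjusted p = 0.0944 with batch as block). It passed as lower after quantile normalization (limma adjusted p = 0.0314), cyclic loess (0.0438) and scaling to the poly-A controls (0.00361), and without batch 1 (0.0343). LAX1, a membrane adaptor that dampens lymphocyte signalling, read 8.06, 8.26 and 8.16 against 8.12, 8.57 and 8.45. LAX1 was higher in each batch, by 0.06, 0.30 and 0.29, and did not pass (limma adjusted p = 0.058 with batch as block).

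**Figure D3:**
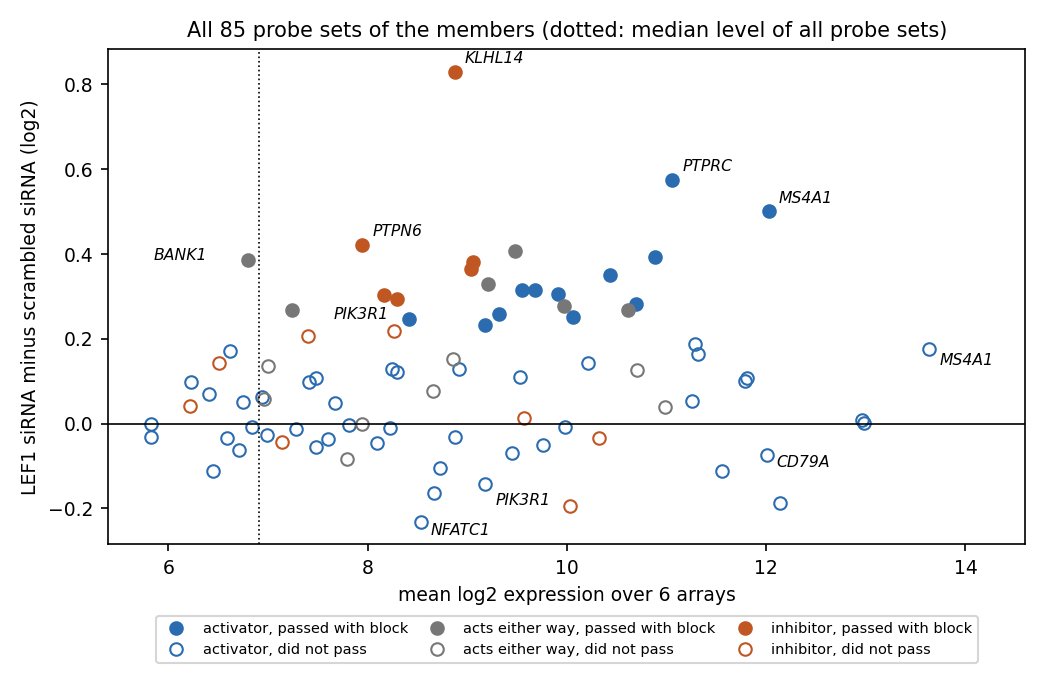
Log2 difference of all 85 member probe sets against their mean log2 expression over 6 arrays, coloured by class, with filled points for the 24 that passed with batch as block. Filled points lie between 0.23 and 0.83, all above 0, and 1 of them (BANK1) lies left of the dotted median level of 6.91; open points lie on both sides of 0.

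By class, the mean difference over genes was 0.13 for the 20 activators, 0.25 for the 4 genes that act either way and 0.36 for the 7 inhibitors, beside 0.03 over all 19775 genes. In batches 1, 2 and 3 the activators averaged 0.18, 0.13 and 0.08, and the inhibitors 0.36, 0.40 and 0.31. The inhibitors' mean lay above that of the activators in each batch, and the SD of the batch means was 0.05 in both classes. That SD leaves out the spread over genes, and the classes overlapped. Single activators ran from -0.19 to 0.57 (median 0.15) and single inhibitors from -0.03 to 0.83, the latter KLHL14 (median 0.37). The genes that act either way averaged 0.20, 0.37 and 0.18, and all genes 0.03, 0.06 and 0.01. At the brightest probe set 6 of 20 activators, 3 of 4 genes that act either way and 5 of 7 inhibitors rose. Over all genes 6.73% rose, and 10.4% of those at or above the median level. These means are descriptions with no test, since the genes and classes were chosen with results of these data known.

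By step, the 5 receptor and co-receptor genes averaged -0.00, the 5 kinase and phosphatase genes at the receptor 0.22, the 8 adaptors and lipid enzymes 0.17 and the 6 downstream effectors 0.20. The adaptors varied least between batches, at 0.17 in each. Averaging all probe sets of a gene in place of the brightest gave 0.08 for the activators and 0.27 for the inhibitors, and scaling to the poly-A controls gave 0.01 and 0.24. Under the latter, which moves the median difference of all probe sets to -0.11, 12 member probe sets rose and 9 fell. The 9 that fell were the brightest ones of CD79B (-0.23), CD81 (-0.31) and PIK3R1 (-0.26) and dimmer ones of NFATC1 (2 probe sets), MALT1, RASGRP3, KLHL6 and CD22. All 24 probe sets that rose on the deposited scale kept a positive difference under each of the 4 scalings, of which 12 passed on the scale of the poly-A controls and 21 on each of the other 3 (quantile, equal medians, cyclic loess).

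**Figure D4:**
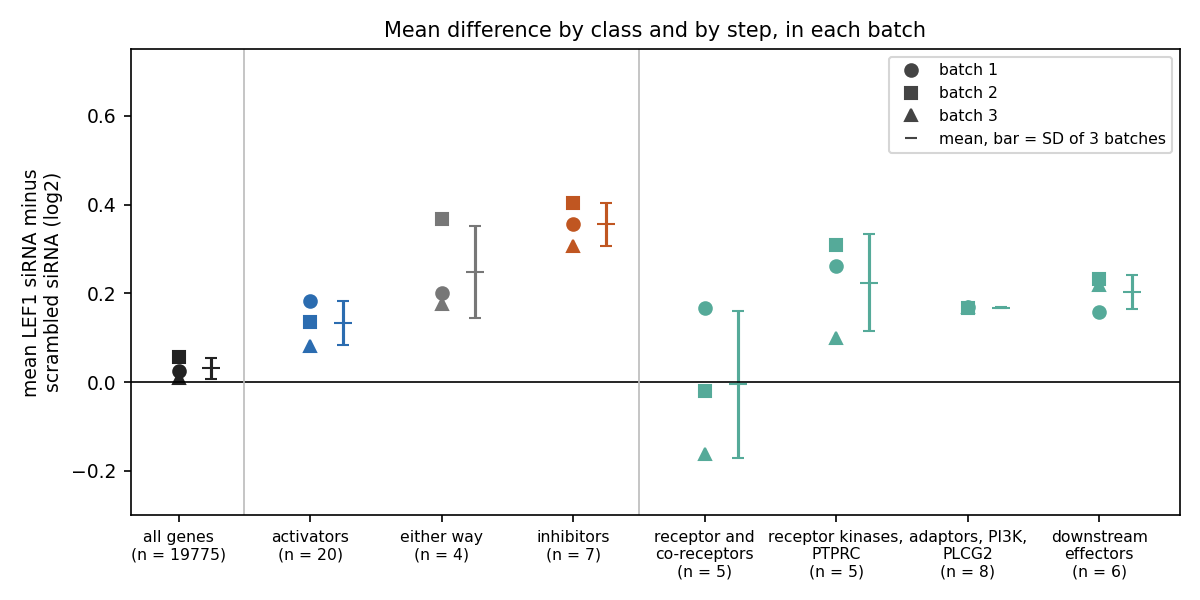
Mean log2 difference (LEF1 siRNA minus scrambled siRNA) over genes in each batch, with the mean and SD of the 3 batch means, for all genes, for the 3 classes of members and for the 4 steps that hold activators and genes acting either way. The inhibitors lie at 0.31 to 0.40 and the activators at 0.08 to 0.18, while the receptor and co-receptors run from 0.17 to -0.16.

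Where a gene had several probe sets, they did not always move together. Of 19 members with more than 1 probe set at or above the median level, 8 had 1 sign at all of them. MS4A1, LYN, PLCG2 and PIK3R1 rose only at a dimmer one. A gene with more probe sets has more chances to pass, and the share of all genes that rose at any probe set was not computed. Of the 14 that rose at the brightest, 9 had several probe sets, and in 5 of these a second one rose too (PTPRC, DAPP1, BANK1, PRKCB and INPP5D). The 5 others (BTK, VAV1, CD72, FCGR2B and PTPN6) had 1 probe set each.

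RefSeq promoters (GRCh38.p14, 250 bases before to 50 after a start site) were searched on both strands for the letters CTTTGAT (reverse ATCAAAG) and CTTTGTT (reverse AACAAAG), which belong to the known consensus of TCF and LEF factors and do not overlap here. Of the 32 members 26 had an entry, with 41 promoters in all. CTTTGAT stood in 2 of these 41, beside 919 of 35116 promoters in the table (2.62%). Both belong to genes that rose, as did 14 of 31 members at the brightest probe set. Whether a match goes with a rise was not tested. The DAPP1 promoter has it 176 bases before the start site, and one of 2 PTPN6 promoters has it 164 bases before the start. The 250 bases upstream of each start are shown because they hold the match, which is in capitals, at chr4:99816577-99816826 (plus strand) for DAPP1 and chr12:6951106-6951355 (plus strand) for PTPN6, the latter inside the PTPN6 gene.
DAPP1: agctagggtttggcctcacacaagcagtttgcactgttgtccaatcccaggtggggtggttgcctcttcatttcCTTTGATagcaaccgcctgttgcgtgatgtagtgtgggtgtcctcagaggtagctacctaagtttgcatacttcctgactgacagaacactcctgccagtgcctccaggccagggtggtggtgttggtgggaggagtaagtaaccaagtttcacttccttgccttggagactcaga
PTPN6: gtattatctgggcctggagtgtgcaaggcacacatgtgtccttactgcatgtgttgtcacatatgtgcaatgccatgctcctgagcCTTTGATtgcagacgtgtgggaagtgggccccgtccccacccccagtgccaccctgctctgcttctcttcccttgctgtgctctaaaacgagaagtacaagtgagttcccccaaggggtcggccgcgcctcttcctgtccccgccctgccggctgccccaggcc
CTTTGTT stood in 1 member promoter, 1 of 3 of PIK3CD (on the reverse strand, 79 bases before the start), beside 1826 of 35116 (5.2%). PIK3CD did not pass at any probe set. A match describes these letters and is no measurement of LEF1 at the site.

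Other genes of the pathway were read from a list of 57, of which 48 were measured. Without block 0 of 48 passed limma (unadjusted, 9 were higher and 2 lower). With batch as block 8 rose (16.7%) and 1 fell (unadjusted, 15 were higher and 2 lower). All 48 lay at or above the median level, where 10.4% of all genes rose and 2.63% fell. The rises were at ITPR2, PIK3CG, CBLB, PTPN11, CBL and GAB1, and at PPP3CA, a calcineurin subunit, and SIGLEC10, an inhibitory receptor. PPP3CA rose by 0.21 (limma adjusted p = 0.049 with batch as block) and SIGLEC10 by 0.26 (0.042). Neither passed with equal array medians, and both were named after their values had been seen. ITPR2, a calcium channel opened by the product of PLCG2, read 8.40, 8.09 and 8.31 with scrambled siRNA and 8.78, 8.87 and 8.75 with LEF1 siRNA, without overlap, and rose by 0.54 (limma adjusted p = 0.000752 with batch as block, 0.129 without). PIK3CG, a further PI3 kinase subunit, rose by 0.36, from 9.998 ± 0.16 (SD, n = 3) to 10.36 ± 0.06. CBLB and CBL encode ubiquitin ligases that limit signalling, and rose by 0.32 and 0.28. Among others of the list that limit signalling, DOK3 (-0.14), CD5 (-0.05), PTPN22 (-0.05), PAG1 (0.02), INPPL1 (0.11) and CSK (0.20) did not pass. PTPN11, the phosphatase SHP-2, rose by 0.31, from 11.51 ± 0.20 to 11.81 ± 0.17, and GAB1, a docking protein for it, by 0.28. HRAS, a Ras protein, fell by 0.30, from 9.44 ± 0.15 to 9.14 ± 0.02 (limma adjusted p = 0.0145 with batch as block). Without batch 2 the calls on CBL, GAB1, PTPN11 and HRAS were lost (highest limma adjusted p over the batches left out 0.132), and 4 of the list passed. CBL was lost without batch 3 as well, and GAB1 without batch 1. Under scaling to the poly-A controls the balance of the list turned, with 3 genes higher and 6 lower by the same test. CBL, GAB1 and PTPN11 (highest limma adjusted p = 0.106), PPP3CA and SIGLEC10 did not pass there. The median difference of the 48 genes was 0.07, with batch means of 0.08, 0.07 and 0.08.

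Genes that the receptor is known to switch on within hours were read from a list of 18, of which 16 were measured and 6 lay below the median level. With batch as block 4 rose (25%) and 0 fell, beside 6.73% and 1.7% of all genes (unadjusted, 8 were higher and 2 lower). Without block 0 of 16 passed limma (1 higher unadjusted). Under scaling to the poly-A controls 4 were higher and 2 lower with batch as block. The median difference was 0.13. On the deposited scale the 2 lower, unadjusted, were MYC (-0.15; limma adjusted p = 0.155 with batch as block) and NR4A1 (-0.15; 0.255). Both were lower in each batch. IER2, JUNB, NFKBIA and TNFAIP3 differed by 0.12 to 0.21 and did not pass. The 6 genes below the median level (FOS, CD69, CCND2, CCL4, EGR3 and NR4A2) differed by -0.02 to 0.17 and did not pass either. DUSP2, a nuclear phosphatase that turns off MAP kinases, read 9.43, 8.62 and 8.65 with scrambled siRNA and 10.15, 8.83 and 8.96 with LEF1 siRNA and rose by 0.41 (limma adjusted p = 0.00723 with batch as block, 0.894 without). The groups overlapped, and batch 1 was the highest in both. The same held for EGR1, a transcription factor, at 8.35, 6.50 and 6.80 against 9.08, 6.89 and 6.96. EGR1 rose by 0.43 (limma adjusted p = 0.00716 with batch as block, 0.96 without). CD83, an activation marker, read 11.84, 10.19 and 10.65 against 12.84, 11.08 and 11.32. It rose by 0.85 with overlapping groups (limma adjusted p = 1.49e-05 with batch as block, 0.809 without). BCL2A1, a survival gene, read 9.36, 8.68 and 8.78 against 10.78, 9.56 and 9.46, without overlap. It rose by 0.99 (limma adjusted p = 0.000124 with batch as block, 0.466 without). In all 4 the batch 1 arrays stood above those of batches 2 and 3 in both groups, and the SD over 3 arrays reached 0.73 for DUSP2, 1.25 for EGR1, 0.95 for CD83 and 0.74 for BCL2A1.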

How the data were processed

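Biotinylated cRNA was prepared by 3' in vitro transcription from total RNA of 6 BL2 cultures and hybridised to HG-U133 Plus 2.0 arrays, per the labels' protocols, so signal comes mainly from 3' ends. The authors deposited 1 log2 value per probe set and array. Background correction, normalization and summarisation are not given in the sources used here, and the log2 scale was read from the range of 5.45 to 14.95. The medians of the arrays lay between 6.89 and 6.96. Their number limits the precision. After 62 control probe sets were left out, 54613 were tested. Of these 41091 named 1 gene in the platform annotation, 1801 several and 11721 none, and RefSeq (GRCh38.p14) changed 0 symbols.

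The group difference was estimated by limma 3.58.1 (R 4.3.3, data tables read by the data.table package, version 1.17.8), two-sided, with Benjamini-Hochberg adjustment over all tested probe sets and a threshold of 0.05. The fit was made without block and with batch as block. The batch label is the source of the pairing, and within batches the arrays' deviations from their group mean had correlations of 0.477, 0.493 and 0.621 across probe sets. The blocked fit has 2 residual degrees of freedom beside 12 prior ones (4 and 4.07 without block), so most of its error estimate is borrowed from the other probe sets. P-values without block measure the spread between the cultures of a group. Those with batch as block measure the spread of the differences within batches. Both include the borrowed part. The members and lists were chosen with earlier results of these data known, so no list was tested as a set. Named genes were all members at every probe set, LEF1, and up to 6 genes a list and direction with the smallest p.

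Alternatives were quantile normalization, equal array medians, cyclic loess, scaling to 24 poly-A control probe sets, no dim probe sets, an intensity trend with a robust prior, an adjusted p of 0.1, other probe sets per gene, other classes, and leaving out arrays or batches. The scalings together with the block were added after the data were seen. Figures used Python 3.11.15, pandas 2.3.3 and matplotlib 3.10.9.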

Additional observations from a re-analysis of the deposited data

How the results depend on the processing

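The block decides the calls. Without block 10 probe sets passed, against 3328 with batch as replicate block; for members the counts were 0 and 24 probe sets, for other pathway genes 0 and 9, and for receptor response genes 0 and 4. Without block, the total was 23 after quantile normalization and 23 after cyclic loess, 6 with an intensity trend and robust prior, 63 at an adjusted p of 0.1 (2 of them members) and 0 to 8 with an array or batch left out, and 1 receptor response gene passed under scaling to the poly-A controls. With batch as block, that scaling gave 8797 calls, 11.0% of them higher (75.2% on the deposited scale, 56.1% after quantile normalization, 66.4% with equal medians and 60.1% after cyclic loess). Leaving out a batch gave 1407 (without batch 2) to 3880 calls in all, 14 (without batch 2) to 27 for members and 4 (without batch 2) to 10 for other pathway genes. The mean difference of the activators was 0.014 under scaling to the poly-A controls and 0.081 over all probe sets of a gene, and 0.10 to 0.19 with an array or batch left out. For the inhibitors these were 0.24, 0.27 and 0.29 to 0.40.

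Small differences that did not pass at the brightest probe set changed sign. LYN turned to -0.080 and PLCG2 to -0.019 under scaling to the poly-A controls, in both fits. With an array or batch left out, CD79A ran from -0.18 to 0.042 (highest 0.012 with batch as block), LYN from -0.11 to 0.18, BLK from -0.16 to 0.16 (-0.017 to 0.0034 with batch as block), PIK3R1 from -0.30 to 0.00683, MALT1 from -0.073 to 0.0039, NFATC1 from -0.28 to 0.16 and CD22 from -0.0935 to 0.044. DUSP2 ran from -0.0065 to 0.68 and EGR1 from -0.29 to 1.00 without block, and both kept their sign with batch as block. The cause was not tested. A pseudocount did not apply to log2 values. Dim probe sets, 13 of 85 here, limit what can be seen.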
